A study of Homo sapiens with 8 samples.

Results

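The cytochrome P450 genes were followed in HSC39 cells, a human gastric cancer line of signet ring type, after small interfering RNA (siRNA) against TRIM44. Members were all probe sets with exactly 1 gene symbol made of CYP, a family number, a subfamily letter and a gene number, which left out CYP51A1, pseudogene symbols ending in P, and the antisense gene CYP1B1-AS1. The rule found 47 genes, each with 1 probe set, of 18404 genes with a probe set of 1 symbol. Another 6 probe sets that carry a P450 symbol together with other symbols were not members. CYP2D7 passed the rule by its symbol, although RefSeq lists it as a transcribed pseudogene.

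The cells were grown in RPMI with 10% fetal calf serum, and RNA of 8 samples was hybridised to 8 whole-transcript arrays. Control samples, 4 in number, received All stars negative SiRNA (called negative siRNA here), and the others received TRIM44 siRNA 7 (2 samples) or TRIM44 siRNA 9 (2 samples), which the labels give as 100 nM (written nm) for 48 h. The treatment text in the labels names TRIM44 siRNA for every sample, the controls included, so groups follow the sample titles. The series design calls the controls untreated and counts 4 biological replicates per condition, which joins both reagents, but no label says that they were separate cultures, so the spread behind each p-value may be partly technical. In bulk samples, fewer cells of a kind and less RNA per cell cannot be told apart.

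P450 enzymes are haem proteins that insert an oxygen atom into lipid-soluble molecules with electrons passed on by P450 oxidoreductase or, in mitochondria, by ferredoxin. Families 1 to 3 mainly clear drugs and other foreign compounds and are best known from liver, while other families make or remove bile acids, steroid hormones, vitamin D, retinoic acid and oxidised fatty acids. In the gut and stomach, epithelial cells carry a smaller set of these enzymes, several of which respond to the aryl hydrocarbon receptor (AHR), a sensor of planar aromatic compounds.

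In each of the 4 comparisons made, 0 to 3 of the 47 members (0% to 6.38%) passed the threshold (limma adjusted p under 0.05). Beside them 0.00522% to 2.23% of all 19158 probe sets passed. The calls fell on 4 different members. How many of all probe sets passed in at least 1 comparison was not counted, so that number has no share to be set against. CYP2S1 fell with siRNA 7, CYP39A1 rose with siRNA 9, and CYP2B6, CYP2U1 and CYP39A1 differed between the reagents. The 250 bases before the RefSeq start of these 4 genes are shown because they are the members whose values moved, and those of CYP1A1 are shown beside them as the textbook AHR target of the family. Capitals mark matches on either strand to 4 motifs: GCGTG, the core bound by AHR with its partner ARNT, TATAAA, the TATA box, GGGCGG, the GC box, and CCAAT. No motif contains another. In order, the windows are chr19:41192969-41193218 (plus strand), chr6:46652819-46653068 (minus strand), chr19:40991032-40991281 (plus strand), chr4:107931299-107931548 (plus strand) and chr15:74725529-74725778 (minus strand) of GRCh38.p14, each read 5′ to 3′ along its gene.
CYP2S1: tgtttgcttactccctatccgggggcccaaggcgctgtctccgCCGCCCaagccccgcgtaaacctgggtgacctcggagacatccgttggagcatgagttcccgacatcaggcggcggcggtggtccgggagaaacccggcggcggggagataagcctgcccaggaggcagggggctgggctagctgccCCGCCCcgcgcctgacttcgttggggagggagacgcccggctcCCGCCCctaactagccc
CYP39A1: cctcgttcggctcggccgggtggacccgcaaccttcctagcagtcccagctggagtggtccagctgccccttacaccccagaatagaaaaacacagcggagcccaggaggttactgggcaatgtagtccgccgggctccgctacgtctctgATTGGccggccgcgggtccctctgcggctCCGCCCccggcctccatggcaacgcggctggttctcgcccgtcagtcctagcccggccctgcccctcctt
CYP2B6: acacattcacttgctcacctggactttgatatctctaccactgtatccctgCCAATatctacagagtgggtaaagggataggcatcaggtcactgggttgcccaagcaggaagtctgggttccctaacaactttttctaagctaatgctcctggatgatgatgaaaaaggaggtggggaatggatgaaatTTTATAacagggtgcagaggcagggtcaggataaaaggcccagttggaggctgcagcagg
CYP2U1: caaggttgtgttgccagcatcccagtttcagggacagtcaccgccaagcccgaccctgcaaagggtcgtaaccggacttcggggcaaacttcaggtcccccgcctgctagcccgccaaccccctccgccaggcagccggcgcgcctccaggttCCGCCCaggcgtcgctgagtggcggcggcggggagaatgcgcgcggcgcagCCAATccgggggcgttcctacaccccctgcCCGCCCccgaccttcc
CYP1A1: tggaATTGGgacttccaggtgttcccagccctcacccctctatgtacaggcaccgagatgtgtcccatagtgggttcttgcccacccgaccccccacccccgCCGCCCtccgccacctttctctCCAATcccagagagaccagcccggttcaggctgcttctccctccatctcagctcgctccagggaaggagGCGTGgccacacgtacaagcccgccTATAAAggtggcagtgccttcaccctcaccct

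The windows of CYP2S1, CYP39A1 and CYP2U1 are rich in CG dinucleotides, with 23, 21 and 25 of them, and hold 3, 1 and 2 GC boxes but no TATAAA. The CYP2B6 window holds 0 CG dinucleotides and a TATAAA match on the opposite strand at 60 to 55 bases before the start. Only the CYP1A1 window of these 5 holds GCGTG, at 57 to 53 bases before its start, next to a TATAAA match at 32 to 27. Over all 35116 windows of the RefSeq table, 32.2% hold GCGTG, 10.7% TATAAA, 42.6% GGGCGG and 32.0% CCAAT. Of the 45 windows that the table gives for 32 of the 47 members, 9 (20.0%), 12 (26.7%), 18 (40.0%) and 21 (46.7%) do. A match describes letters in this window, and no binding was measured.

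TRIM44 was lowered by both reagents, which checks the labels. Its log2 level was 11.91, 12.02, 11.91 and 11.77 on the negative arrays, 10.85 and 11.27 on the siRNA 7 arrays and 11.10 and 11.14 on the siRNA 9 arrays, a difference of -0.81 (SE 0.10, limma adjusted p = 0.0449). That call ended without negative array 1 (adjusted p = 0.291), 2 (0.0587), 3 (0.285) or 4 (0.103), without siRNA 7 array 1 (0.0929) and without siRNA 9 array 1 (0.209) or 2 (0.199), while each reagent on its own passed (0.0405 for siRNA 7 and 0.0155 for siRNA 9). Array medians lay between 6.78 and 6.87, and pairs of arrays correlated at 0.991 to 0.997. Scores on principal component 1 were 15.5 and 17.2 for siRNA 9, 13.6 for negative array 2 and -11.8 to -5.57 for the other 5 arrays. Epithelial markers (8 measured of 10) had a mean log2 level of 11.71 to 11.86 on the negative arrays, 11.73 to 11.77 with siRNA 7 and 11.67 to 11.76 with siRNA 9, led by the keratin gene KRT8 at 13.05. Hepatocyte markers (12 of 12) had 5.89 to 6.07, 5.86 to 6.02 and 5.96 to 6.06, leukocyte markers (10 of 12) 6.52 to 6.84, 6.60 to 6.65 and 6.69 to 6.72, fibroblast and endothelial markers (11 of 11) 6.40 to 6.56, 6.35 to 6.58 and 6.48 to 6.51, and gastric and intestinal markers (11 of 12) 9.12 to 9.21, 9.14 to 9.18 and 9.14 to 9.22. The leukocyte marker PTPRC was the dimmest of its list at 4.23, while LYZ of the same list was at 11.53. The brightest hepatocyte marker was SERPINA1 (9.87), and the brightest fibroblast and endothelial marker was LUM (9.77), so these lists were not uniformly dim. No gene of the 5 marker lists passed the threshold in any comparison. Values carry no detection call, so dim and absent cannot be told apart. With so few arrays, precision is limited throughout.

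The P450 probe sets covered a wide range of signal, from 3.87 to 10.68 as mean log2 level on the negative arrays. The strength of a probe set depends on its probes as well as on the RNA, so these levels are a description and not an order of RNA amounts. The brightest 10 were CYP2S1 (10.68), the sterol hydroxylase gene CYP27A1 (9.99), the tumour-associated CYP2W1 (7.98), the orphan enzyme gene CYP20A1 (7.94), the drug oxidase gene CYP2D6 (7.76), the fatty acid hydroxylase gene CYP4V2 (7.63), the drug oxidase gene CYP3A5 (7.60), CYP26C1, which degrades retinoic acid (7.55), the epoxygenase gene CYP2J2 (7.54) and CYP46A1, the cholesterol hydroxylase of brain (7.01). The dimmest 5 were CYP24A1, which inactivates vitamin D (4.79), CYP3A43 (4.73), the bile acid enzyme gene CYP7A1 (4.44) and the hepatic drug oxidase genes CYP2C8 (4.14) and CYP3A4 (3.87).

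Spread among the 4 negative arrays also differed between members, with a median SD of 0.14. The narrowest was CYP27C1 at 0.05, and the widest were CYP2B6 at 0.41, CYP2F1 at 0.37 and CYP39A1 at 0.36. Thus the members CYP2B6 and CYP39A1, which differed between the reagents, were also among the 3 most variable within the control group.

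**Figure D1:**
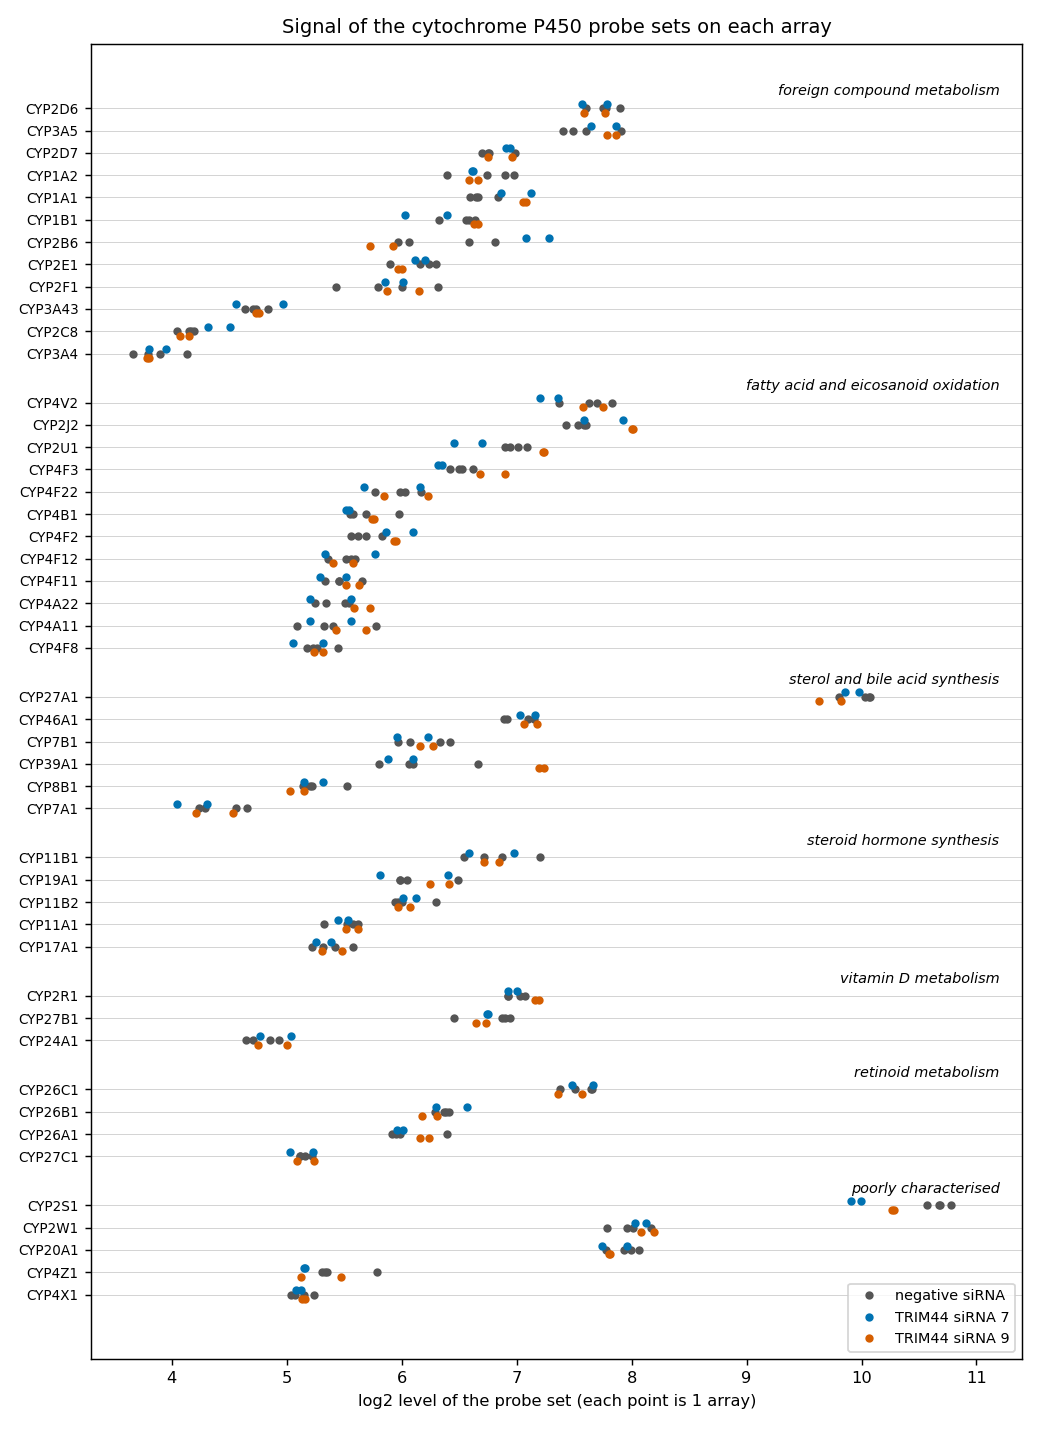
Log2 level (x axis) of each of the 47 cytochrome P450 probe sets (rows, grouped by role) on the 4 negative siRNA arrays (grey), 2 TRIM44 siRNA 7 arrays (blue) and 2 TRIM44 siRNA 9 arrays (orange), each point being 1 array. The arrays overlap for most members, while CYP2S1 is separated to the left with both reagents, CYP39A1 to the right with siRNA 9, and CYP2B6 and CYP2U1 split by reagent.

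CYP2S1 encodes a P450 of epithelia outside the liver that is inducible by dioxin through AHR and has been linked to retinoid and prostaglandin metabolism. Its log2 level was 10.57, 10.78, 10.67 and 10.68 on the negative arrays, 9.99 and 9.91 with siRNA 7, and 10.28 and 10.26 with siRNA 9. All 4 TRIM44 siRNA arrays lay below all negative arrays, and the siRNA 9 arrays lay between the other groups. Against negative siRNA it fell by 0.72 on the log2 scale with siRNA 7, a 1.65-fold lower level (SE 0.09, 95% interval -0.92 to -0.52, adjusted p = 0.0405). With siRNA 9 the difference was -0.40 (95% interval -0.60 to -0.20, adjusted p = 0.0691). The difference between the reagents was -0.32 (95% interval -0.55 to -0.09, adjusted p = 0.150).

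With both reagents taken as 1 condition, CYP2S1 had -0.56 (SE 0.10, adjusted p = 0.215), and an exact permutation test of this single value gave p = 0.0286 (2-sided), the smallest that 70 assignments allow and the value any gene with separate groups has. In a fit of 3 group means, where 0.0209% of all probe sets passed, so did this difference (adjusted p = 0.0423), as it did with array weights (-0.50, adjusted p = 0.0373). Leaving out 1 array at a time gave siRNA 7 differences of -0.76 to -0.68. Its call ended without negative array 3 (adjusted p = 0.122) or 4 (0.0525) and without siRNA 7 array 2 (-0.68). It also ended after median centring (0.0659), with all probe sets tested (0.262) and with only the arrays compared (0.117). In these settings 0.00522%, 0% and 0.00522% of all probe sets passed. Leaving out either siRNA 9 array is the same fit as the last of these. The siRNA 9 difference passed without negative array 2 (-0.37, adjusted p = 0.0324).

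CYP39A1 encodes an oxysterol hydroxylase that acts on hydroxylated cholesterol from brain and other tissues on its way to bile acids. Its log2 level was 6.10, 6.67, 6.07 and 5.80 on the negative arrays, 5.88 and 6.10 with siRNA 7, and 7.23 and 7.20 with siRNA 9. Both siRNA 9 arrays lay above the other 6, and negative array 2 was the highest of its group. CYP39A1 rose with siRNA 9 by 1.06, a 2.08-fold higher level (SE 0.18, 95% interval 0.66 to 1.46, adjusted p = 0.0219). With siRNA 7 it had -0.17 (95% interval -0.57 to 0.23, adjusted p = 0.958), and the reagents differed by -1.23 as siRNA 7 minus siRNA 9 (SE 0.21, adjusted p = 0.0175). Without negative array 2, which scored near the siRNA 9 arrays on principal component 1, the siRNA 9 difference was 1.23 (adjusted p = 0.000546). The siRNA 9 call ended without negative array 1 (1.04, adjusted p = 0.0664) or 3 (1.03, 0.0707) and with all probe sets tested (0.130). In these settings 0.386%, 0.245% and 0.115% of all probe sets passed. The call also ended without siRNA 9 array 1 (1.04) or 2 (1.08), fits that left a lone array of that reagent.

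CYP2B6 encodes a drug-oxidising enzyme of liver that responds to the nuclear receptor CAR. Its log2 level was 6.81, 6.06, 6.58 and 5.97 on the negative arrays, 7.29 and 7.08 with siRNA 7, and 5.73 and 5.93 with siRNA 9. The siRNA 7 arrays lay above, and the siRNA 9 arrays below, all negative arrays, which themselves spanned 0.84. The reagents differed by 1.36, or 2.56-fold (SE 0.23, 95% interval 0.84 to 1.87, adjusted p = 0.0175). Neither reagent passed against negative siRNA, with 0.83 for siRNA 7 (adjusted p = 0.227) and -0.53 for siRNA 9 (adjusted p = 0.262).

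A probe set may not separate CYP2B6 from its near-identical neighbour, the pseudogene CYP2B7P. The CYP2B7P probe set, which is no member, had 5.81, 5.28, 5.62 and 5.38 on the negative arrays, 6.11 and 5.85 with siRNA 7, and 5.31 and 5.30 with siRNA 9. It had a difference of 0.67 between the reagents (adjusted p = 0.0551). How far either probe set reads the other gene was not tested.

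CYP2U1 encodes a fatty acid hydroxylase found in thymus and brain. Its log2 level was 6.94, 6.90, 7.01 and 7.09 on the negative arrays, 6.70 and 6.46 with siRNA 7, and 7.24 and 7.23 with siRNA 9. The siRNA 7 arrays lay below and the siRNA 9 arrays above all negative arrays, the opposite order to CYP2B6. The reagents differed by -0.65 (SE 0.12, 95% interval -0.91 to -0.40, adjusted p = 0.0179), while siRNA 7 had -0.41 (adjusted p = 0.227) and siRNA 9 had 0.25 (adjusted p = 0.291) against negative siRNA.

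The differences between the reagents kept their sign with each array left out, at 1.25 to 1.46 for CYP2B6, -0.78 to -0.53 for CYP2U1 and -1.34 to -1.12 for CYP39A1. Without siRNA 7 array 1 the call remained for CYP2U1 and ended for CYP2B6 and CYP39A1. All 3 calls ended without siRNA 7 array 2, without siRNA 9 array 1 and without siRNA 9 array 2. Each of these fits left a lone array of a reagent, and calls over all probe sets were also fewer in them. The 3 calls also ended with all probe sets tested (adjusted p = 0.0907 for CYP2B6, 0.0906 for CYP39A1 and 0.0842 for CYP2U1). In that setting 0.0365% of the 19158 probe sets passed.

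**Figure D2:**
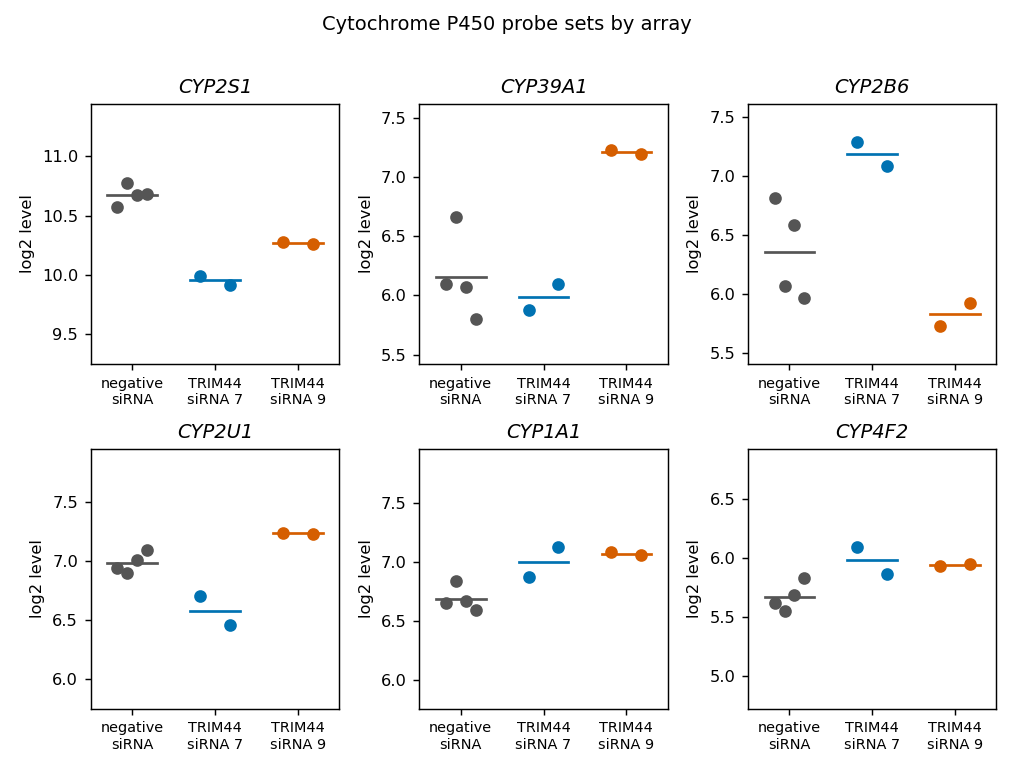
Log2 level (y axis, the same span of 2.2 in each panel) of 6 cytochrome P450 probe sets on each array, by group, with a line at the group mean. CYP2S1 lay lower with both reagents, CYP39A1 lay at 7.20 and 7.23 with siRNA 9, CYP2B6 and CYP2U1 split in opposite directions by reagent, and CYP1A1 and CYP4F2 lay above all negative arrays with both reagents.

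With both reagents as 1 condition, limma called 0 of 47 members, where it called 0.00522% of all 19158 probe sets. That share was TRIM44 alone, the target of the reagents. At an unadjusted p under 0.05 there were 4 members (8.51%), against 5.43% of all probe sets: CYP2S1, CYP1A1, CYP2J2 and CYP4F2. Differences of the members ran from -0.56 to 0.44 with a median of -0.01, beside a median of 0.01 over all probe sets, and 41 of 47 lay within 0.2 of 0. Groups did not overlap for 3 members (6.38%), beside 2.86% of all probe sets. These were CYP2S1, lower (1.26% of all probe sets), and CYP1A1 and CYP4F2, both higher (1.59% of all probe sets).

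CYP1A1 encodes the classical AHR-induced enzyme that oxidises polycyclic hydrocarbons. Its log2 level was 6.65, 6.83, 6.67 and 6.59 on the negative arrays, 6.87 and 7.12 with siRNA 7, and 7.08 and 7.05 with siRNA 9. The lowest TRIM44 siRNA array lay just above the highest negative array. The difference was 0.35 (SE 0.09, adjusted p = 0.714), with 0.31 for siRNA 7 and 0.38 for siRNA 9, and the reagents differed by -0.07 (95% interval -0.34 to 0.19). Without siRNA 7 array 2 the siRNA 7 difference was 0.18 (adjusted p = 0.999), and without negative array 2 the siRNA 9 difference was 0.43 and passed (adjusted p = 0.0266).

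Values of the other AHR-responsive members differed in sign. CYP1B1, which oxidises oestrogens, had -0.32 with siRNA 7 and 0.12 with siRNA 9, CYP1A2 had -0.14 and -0.13, and neither passed in any comparison. The siRNA 7 difference of CYP1B1 was -0.50 without siRNA 7 array 1 and -0.14 without array 2. CYP2S1, described above, was lower with both reagents.

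CYP4F2, an omega-hydroxylase of leukotrienes and vitamin K, had a log2 level of 5.62, 5.56, 5.69 and 5.83 on the negative arrays, 6.09 and 5.87 with siRNA 7, and 5.94 and 5.95 with siRNA 9. Its difference was 0.29 (SE 0.09, adjusted p = 0.792), and the siRNA 7 difference, 0.31, was 0.19 without siRNA 7 array 1. The groups were separate but close, since the lowest siRNA array and the highest negative array differed by less than the SD of the negative arrays, 0.12. CYP2J2, which makes epoxides of arachidonic acid, had 7.59, 7.60, 7.53 and 7.43 on the negative arrays, 7.59 and 7.92 with siRNA 7, and a mean of 8.01 with siRNA 9, whose arrays differed by 0.01. Its siRNA 7 arrays were split, and 1 of them lay within the range of the negative arrays. Its difference was 0.34 with both reagents (adjusted p = 0.788) and 0.47 with siRNA 9 (adjusted p = 0.0703). The siRNA 9 difference passed without negative array 2 (0.49, adjusted p = 0.0251) and with only the arrays compared (0.0488). It also passed in the upper 50% of probe sets (0.0286), with the trended prior (0.0407) and with array weights (0.00473).

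Against negative siRNA alone, siRNA 7 changed 1 of 47 members (CYP2S1), where 0.0679% of all probe sets passed and 0.0626% fell. At an unadjusted p under 0.05 were 8 members (17.0%), beside 7.46% of all probe sets. Of the members, 18 lay above 0 and 29 below, with a median of -0.03 beside -0.00 over all probe sets. The 2 siRNA 7 arrays did not overlap the negative arrays for 10 members (21.3%), beside 14.4% of all probe sets. The 4 that lay higher (6.38% of all probe sets) were CYP1A1, CYP4F2, CYP2B6 and the drug oxidase gene CYP2C8, at 0.27 (adjusted p = 0.466), or 0.18 without siRNA 7 array 2. The 6 that lay lower (7.99% of all probe sets) were CYP2S1, CYP2U1, CYP4V2 at -0.35 (adjusted p = 0.503), CYP4F3, a leukotriene hydroxylase gene, at -0.18, CYP4B1 at -0.17 and CYP4Z1 at -0.29.

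With siRNA 9, 1 of 47 members changed (CYP39A1), where 0.924% of all probe sets passed, 0.334% higher and 0.590% lower. At an unadjusted p under 0.05 were 9 members (19.1%), beside 13.6% of all probe sets. Here 28 members lay above 0 and 19 below, with a median of 0.02 beside 0.02 over all probe sets. The siRNA 9 arrays did not overlap the negative arrays for 10 members (21.3%), close to 22.7% of all probe sets. The 8 that lay higher (13.4% of all probe sets) were CYP39A1, CYP2J2, CYP1A1, CYP4F2, CYP4F3 at 0.27 (0.16 without siRNA 9 array 1), CYP2U1 at 0.25, CYP4A22 at 0.24 and the vitamin D hydroxylase gene CYP2R1 at 0.19, and the 2 that lay lower (9.23% of all probe sets) were CYP2S1 and CYP2B6. CYP27A1, a mitochondrial sterol hydroxylase, had -0.27 (adjusted p = 0.278), or -0.18 without siRNA 9 array 2, and overlapped the negative arrays. Without negative array 2 the number of members called was 4 (8.51%; CYP39A1, CYP2J2, CYP1A1 and CYP2S1), while the calls over all probe sets went from 177 to 1067 (5.57%). That number was 2 with only the arrays compared (CYP39A1 and CYP2J2), beside 0.82% of all probe sets. It was 0 without negative array 1 or 3, beside 0.386% and 0.245% of all probe sets. The CYP39A1 call also ended without siRNA 9 array 1 or 2, fits that left a lone array of that reagent. An exact permutation test of 2 arrays against 4 cannot go below p = 0.0667, so each reagent rests on the limma fit.

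Between the reagents, 3 of 47 members passed, where 2.23% of all probe sets did. CYP2B6 was higher with siRNA 7 (0.820% of all probe sets), and CYP39A1 and CYP2U1 were higher with siRNA 9 (1.41%). At an unadjusted p under 0.05 were 8 members (17.0%), beside 15.7% of all probe sets. The arrays of the reagents did not overlap for 19 members (40.4%), beside 48.6% of all probe sets. Of these, 6 lay higher with siRNA 7 (19.9% of all probe sets) and 13 lower (28.7%). Beyond the 3 called, CYP4F3 had -0.45 (adjusted p = 0.0611), CYP1B1 -0.44 (adjusted p = 0.138) and CYP2C8 0.31 (adjusted p = 0.183). CYP4F3 passed without negative array 2 (adjusted p = 0.0349) and with array weights (0.0360), settings in which 5.48% and 5.55% of all probe sets passed. Without siRNA 7 array 2 the CYP1B1 value was -0.26.

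**Figure D3:**
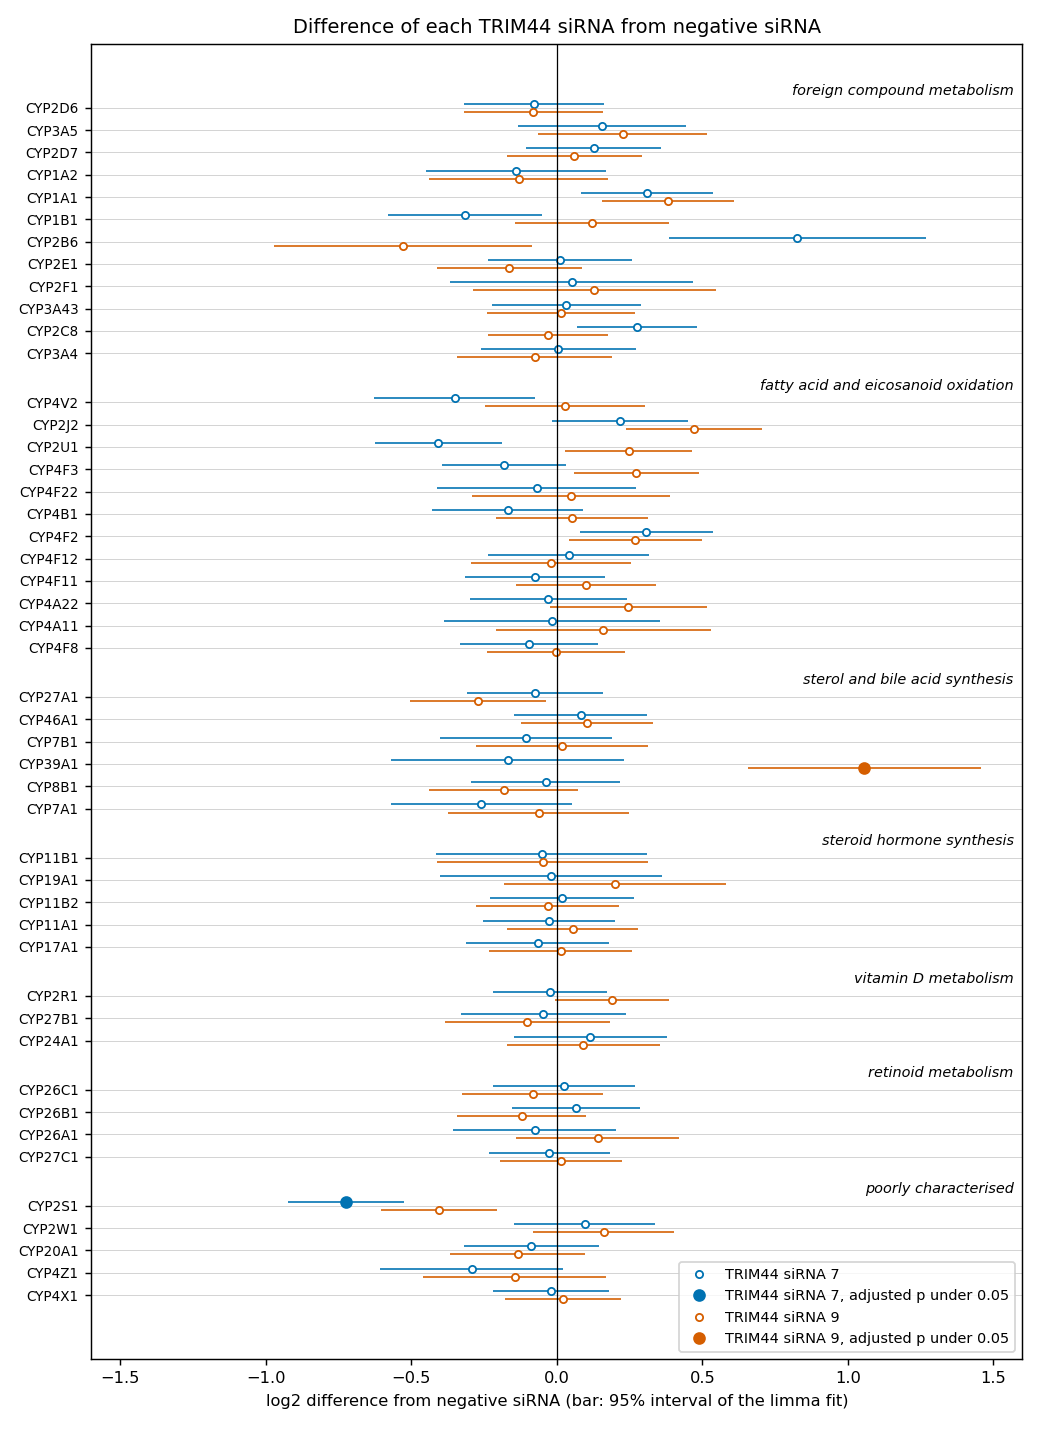
Log2 difference from negative siRNA (x axis) of the 47 members with TRIM44 siRNA 7 (blue) and siRNA 9 (orange), with 95% intervals of the limma fit. Both contrasts use the same 4 negative arrays, filled points mark an adjusted p under 0.05, and these are CYP2S1 with siRNA 7 (-0.72) and CYP39A1 with siRNA 9 (1.06).

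By role, the 12 enzymes of foreign compound metabolism had a median of 0.04 with siRNA 7 and -0.01 with siRNA 9, and the reagent difference of CYP2B6 was the only call among them. CYP3A5, the brightest of its subfamily here, had 0.16 and 0.23, and CYP3A4 had 0.01 and -0.08. The 12 enzymes of fatty acid and eicosanoid oxidation had a median of -0.07 with siRNA 7, with 9 of 12 below 0, beside 9718 of all 19158 probe sets. With siRNA 9 their median was 0.13, with 10 of 12 above 0, beside 10823 of all probe sets. Both contrasts use the same negative arrays. For these 12 the difference of siRNA 7 minus siRNA 9 was below 0 for 10, beside 10856 of all probe sets. Its median was -0.20, beside -0.03 over all probe sets. Of those 10, CYP2U1 passed. The arrays of the reagents did not overlap for 7 of the 12 (58.3%), all lower with siRNA 7. Of all probe sets, 28.7% were separate in that direction and 48.6% in either direction.

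Several members of this role lie next to each other, the CYP4F genes on chromosome 19 and the CYP4A genes on chromosome 1, and their probe sets may share sequence with close paralogs. The 6 CYP4F probe sets lie in 1 stretch of chromosome 19 and did not move together. CYP4F2 had 0.31 and 0.27 with siRNA 7 and siRNA 9, CYP4F3 had -0.18 and 0.27, and CYP4F8, CYP4F11, CYP4F12 and CYP4F22 lay between -0.09 and 0.10. The other stretch of chromosome 19 holds CYP2B6, CYP2F1 and CYP2S1, whose siRNA 7 differences were 0.83, 0.05 and -0.72. Neighbouring genes thus had differences of opposite sign.

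The 6 enzymes of sterol and bile acid synthesis had medians of -0.09 and -0.02, and CYP39A1 was the only one called. CYP7A1, the rate-limiting enzyme of the classical bile acid route, had -0.26 and -0.06, CYP7B1, another oxysterol hydroxylase, had -0.10 and 0.02, and CYP8B1, which directs the route to cholic acid, had -0.04 and -0.18. Enzymes of steroid hormone synthesis (5 members) lay between -0.07 and 0.20 over both reagents, with CYP19A1, or aromatase, at -0.02 and 0.20. In vitamin D metabolism, the activating enzyme gene CYP27B1 had -0.05 and -0.10 and the inactivating CYP24A1 had 0.12 and 0.09. The 4 enzymes of retinoid metabolism, CYP26A1, CYP26B1, CYP26C1 and CYP27C1, lay between -0.12 and 0.14, and 0 members of these last 3 roles passed or had an unadjusted p under 0.05 in any of the 4 limma comparisons. Their intervals still allow changes, for example -0.18 to 0.58 for CYP19A1 with siRNA 9.

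Among the 5 members of less settled function, CYP2S1 was the only one called. CYP2W1 had 0.10 and 0.16, CYP20A1 -0.09 and -0.13, CYP4Z1 -0.29 and -0.15 and CYP4X1 -0.02 and 0.02 with siRNA 7 and siRNA 9.

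The genes that supply or follow P450 enzymes were counted over 8 lists of 142 different genes. None of the genes in these 8 lists passed with both reagents as 1 condition or with siRNA 7 alone in limma, where 0.00522% and 0.0679% of all probe sets did. At an unadjusted p under 0.05 were 16 (11.3%) and 19 (13.4%) of them, beside 5.43% and 7.46% of all probe sets. Shares by list ran from 0% to 30% (AHR target genes) and from 5.26% (ligand-activated regulators) to 25% (eicosanoid list). The 46 conjugating enzymes had 7 (15.2%) and 9 (19.6%). With siRNA 9, 2 of the 142 passed (1.41%), beside 0.924% of all probe sets. In this comparison FECH, which inserts iron to form haem, fell by 0.66 (SE 0.10, adjusted p = 0.0157). It went from 7.94, 7.69, 7.89 and 7.67 on the negative arrays to 7.21 and 7.06, while siRNA 7 had 7.71 and 7.69. UGT2B4, which glucuronidates bile acids, rose by 0.56 (SE 0.09, adjusted p = 0.0169), from 10.49, 10.58, 10.68 and 10.48 to 11.11 and 11.14, while siRNA 7 had 10.57 and 10.56. For both genes the siRNA 9 arrays stood outside the range of all other arrays. Both calls ended without siRNA 9 array 1 or 2, fits that left a lone array of that reagent.

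Between the reagents, 7 of the 142 genes passed (4.93%), beside 2.23% of all probe sets. Of the 7, 6 were higher with siRNA 9, the direction of 1.41% of all probe sets, and 1 was higher with siRNA 7 (0.820%). The glutathione transferase gene GSTA2 had -0.86 (adjusted p = 0.0298), with 8.02 and 7.57 on the siRNA 7 arrays against 8.77 and 8.55 on the siRNA 9 arrays. ALDH3A1, an AHR-responsive aldehyde dehydrogenase, had -0.61 (adjusted p = 0.0374), with 9.00 and 8.82 against 9.66 and 9.38. UGT2B4 had -0.56 (adjusted p = 0.0232), and FECH, the 1 gene higher with siRNA 7, had 0.57 (adjusted p = 0.0345). The probe sets of GSTA2 and UGT2B4 may also read near-identical relatives of these genes.

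In the eicosanoid list, the cyclooxygenase gene PTGS1 had -0.70 (adjusted p = 0.0378), the prostaglandin E synthase gene PTGES -0.55 (adjusted p = 0.0444) and EPHX2, which hydrolyses the epoxides that CYP2J2 and its relatives make, -0.50 (adjusted p = 0.0467). All 3 were higher on both siRNA 9 arrays than on either siRNA 7 array. After median centring 5 of the 7 genes passed, without PTGES and EPHX2. All 7 calls ended without siRNA 9 array 1 or 2, fits that left a lone array of that reagent.

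The remaining lists held 0 calls in any limma comparison. Electron donors (9 genes) had medians of 0.03 with siRNA 7 and -0.03 with siRNA 9, and the smallest p among them was that of the cytochrome b5 reductase gene CYB5R1, at -0.27 with siRNA 7 (adjusted p = 0.466). Ligand-activated regulators (19 genes) had 0.01 and 0.07, with the vitamin D receptor gene VDR at -0.37 between the reagents (adjusted p = 0.101). The oxysterol and bile acid list (16 genes) had 0.01 and 0.04, with the sterol acyltransferase gene SOAT1 at -0.29 with siRNA 9 (adjusted p = 0.201). The retinoid list (15 genes) had 0.03 and 0.05, with the retinol carrier gene RBP4 at 1.03 between the reagents (adjusted p = 0.0577).

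**Figure D4:**
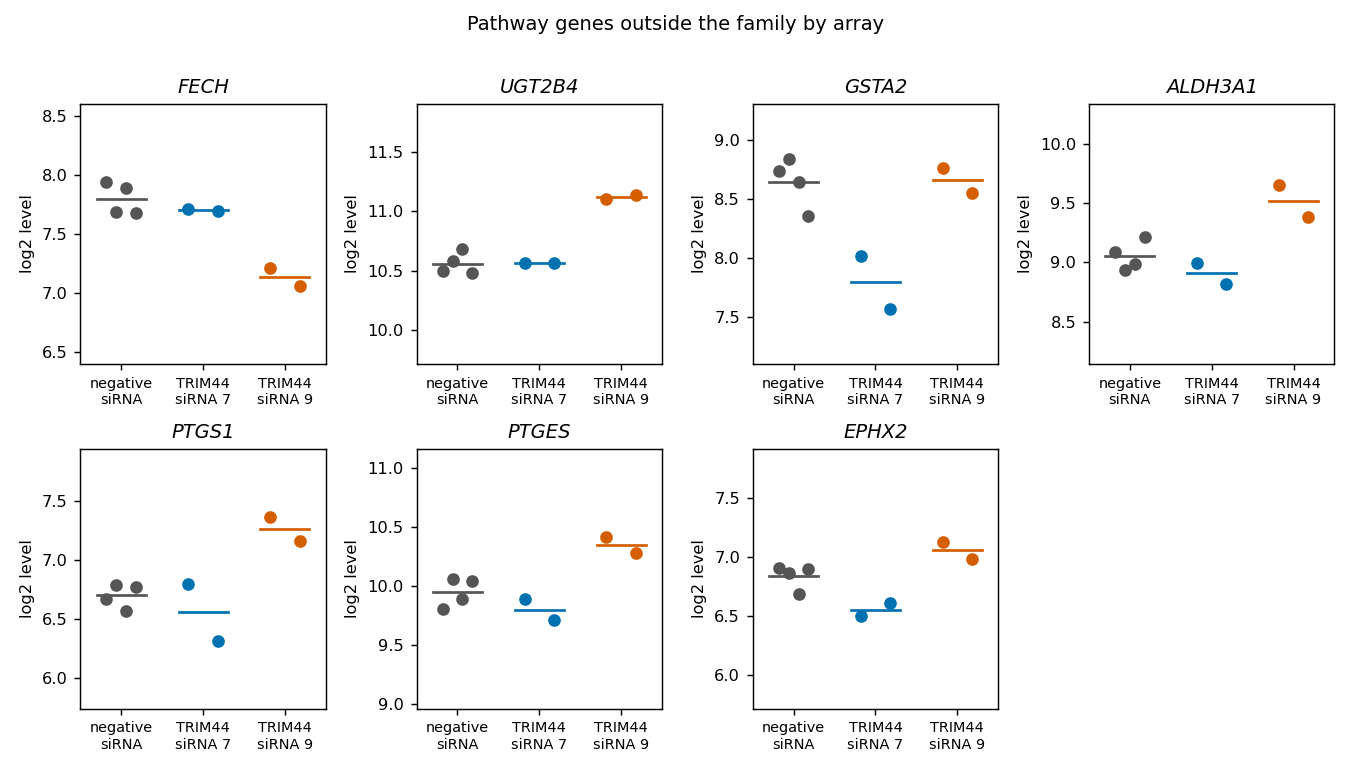
Log2 level (y axis, the same span of 2.2 in each panel) of the 7 pathway genes outside the family that passed between the reagents, on each array by group, with a line at the group mean. FECH lay at 7.21 and 7.06 with siRNA 9, below the other arrays, while GSTA2 lay lower with siRNA 7, at 8.02 and 7.57.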

How the data were processed

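RNA of 8 HSC39 samples was hybridised to Affymetrix whole-transcript arrays. The deposited table holds log2 expression levels of 32321 probe sets. The authors used limma, per the submitters' processing notes. After sorting, the arrays' values lay within 0.180 of each other. How they were summarised and normalized is not given in the sources used here. Gene symbols came from the platform annotation, looked up by gene ID in RefSeq GRCh38.p14 (19128 of 19158 found, 0 changed).

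All 19158 probe sets with 1 symbol were fitted, with no level filter, and p-values were 2-sided and Benjamini-Hochberg adjusted over all of them at 0.05. TRIM44 siRNA was compared with negative siRNA as 2 groups, and the reagents in a fit of 3 group means. For the 13 lists (201 of 231 entries measured) the brightest probe set stood for a gene. The members and lists were chosen with earlier results of these data known. Named members were those past the threshold, the 4 of smallest unadjusted p each way per comparison, and the 10 brightest and 5 dimmest. From each list came the genes past the threshold, up to 4, or the 1 of smallest p. Other members are named for their role or their separate arrays, chosen after their values were seen. Promoter sequences are RefSeq's, without the bases after the start. Alternatives were another normalization, filter, prior or weighting, a replicate block and leaving out each array. The fit was tested on simulated data. R 4.3.3, limma 3.58.1 and matplotlib 3.10.9 were used.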

Additional observations from a re-analysis of the deposited data

Results flagged for a closer look

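The reagents differed for 3 members in the limma contrast of siRNA 7 minus siRNA 9, in which 2.23% of all probe sets passed: CYP2B6 (1.36), CYP39A1 (-1.23) and CYP2U1 (-0.65). Also past the threshold in this contrast were 7 of the 142 pathway genes (4.93%), FECH (0.57), GSTA2 (-0.86), PTGS1 (-0.70), ALDH3A1 (-0.61), UGT2B4 (-0.56), PTGES (-0.55) and EPHX2 (-0.50).

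Single negative arrays stood far from the other 3 for 6 of the 47 members by Dixon's test, and chance flags about 1 in 20 groups. Negative array 4 lay at 5.79 for CYP4Z1, 6.39 for CYP26A1 and 6.30 for CYP11B2. Negative array 2 lay at 9.81 for CYP27A1, 6.49 for CYP19A1 and 6.45 for CYP27B1.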

How the results depend on the processing

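The 32 log2 differences of named members, chosen for small p-values in these same data, had 0 changes of sign under the alternatives run. Many alternatives could not change a value, since they altered only the spread or the adjustment, or left out an array not compared. In the siRNA 7 and siRNA 9 comparisons, leaving out an array of the other reagent repeated the fit of only the arrays compared. With such repeats counted each time, the side of the threshold was the same in 442 recomputed values, while 29 lost and 19 gained a call. The number of members called with siRNA 7 was 1. It was 0 after median centring, with all probe sets, with the replicate block and with only the arrays compared. In these settings 0.00522%, 0%, 0% and 0.00522% of all probe sets passed. It ran from 0 to 1 with each negative array left out, beside 0.00522% to 0.183% of all probe sets. With siRNA 9 it was 1, and 2 in the upper 50% of probe sets (CYP2J2 and CYP2S1 of 8 members tested there, without CYP39A1, and 4.07% of all tested). It was 0 with all probe sets (beside 0.115%) and with the replicate block (beside 0.23%). It was 3 with the trended prior (6.38%, beside 2.11% of all probe sets), 6 with array weights (12.8%, beside 10.9%) and 2 with only the arrays compared (4.26%, beside 0.82%). With each negative array left out it ran from 0 to 4, beside 0.245% to 5.57% of all probe sets. Between the reagents it was 3, and 0 in the upper 50% of probe sets, where CYP2B6, CYP2U1 and CYP39A1 were not tested. It was 0 with all probe sets (beside 0.0365%) and 3 to 4 with each negative array left out (beside 1.14% to 5.48%). Where an siRNA array was left out it fell, as did the calls over all probe sets. With both reagents it was 0, and 1 (CYP2S1) with array weights and with 3 group means (beside 0.172% and 0.0209% of all probe sets). TRIM44 had -0.81 after median centring (adjusted p = 0.108), -0.81 with all probe sets (0.442), -0.88 with the replicate block (0.998) and -0.87 to -0.73 with each array left out. Replicate numbers were not shown to pair the samples, and pairing was not excluded. Deviations of samples with the same number correlated at 0.02 to 0.31, highest for siRNA 7 with negative siRNA (0.27 and 0.31). For different numbers the correlations ran from -0.31 to 0.16. With 2 arrays per reagent, their deviations are exact opposites. Each correlation therefore recurs with its sign changed, and the different numbers are no separate check. Both calls against negative siRNA ended with the replicate block in limma. CYP2S1 had -0.72 (adjusted p = 0.157) with siRNA 7, and CYP39A1 had 0.83 (adjusted p = 0.0672) with siRNA 9. Where all probe sets were tested, both the limma prior and the adjustment ran over 32321 probe sets. Their parts in the lost calls were not told apart. In the other settings the cause was not tested. With a lone siRNA array left, it was assumed to vary like the other groups. Counts of the pathway lists were recomputed after median centring only. No signal over background came with the values, so its limit is unknown.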
